A study of Rattus norvegicus with 8 samples.

Results

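Transcripts of 6 genes of the glutamatergic synapse were followed in the hippocampus of aged rats. They were the NMDA receptor genes Grin1 (ENSRNOG00000011726), Grin2a (ENSRNOG00000033942) and Grin2b (ENSRNOG00000008766), the AMPA receptor gene Gria1 (ENSRNOG00000045816), the kinase gene Camk2a (ENSRNOG00000018712) and the scaffold gene Dlg4 (ENSRNOG00000018526). They were taken by gene ID, with earlier results of these data known, and are 6 of the 26405 IDs in the count table. All 6 were among the 14522 IDs abundant enough to be tested. The symbols come from the list that defines the set, since the deposited tables carry IDs only. Counts are per gene, so splice forms are not told apart.

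The animals were female Sprague-Dawley rats aged 28 months, and every one of them carried an adenoviral vector delivered into the cerebral ventricles. The IGF1 group of 4 rats received a vector encoding rat insulin-like growth factor I, a trophic peptide hormone. The DsRed group of 4 rats received the placebo vector, labelled as the empty vector DsRed, which is the name of a red fluorescent protein. Right hippocampi were sequenced, 1 library per rat. No untreated or young animals are among these samples, so the comparison is between vectors at a single age. The promoter driving the transgene, the dose and the time since injection are not given in the labels used here, and the transcript of the transgene was not analysed here.

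Most fast excitatory transmission in the hippocampus uses glutamate. AMPA receptors carry the rapid current, and GluA1, the product of Gria1, is a subunit that is added to synapses during long-term potentiation. NMDA receptors open when glutamate binds while the membrane is depolarised, and the calcium they pass starts synaptic plasticity. Each NMDA receptor needs GluN1, from Grin1, together with regulatory subunits such as GluN2A and GluN2B, from Grin2a and Grin2b. GluN2B dominates early in development and GluN2A increases as circuits mature. Calcium activates the kinase CaMKII, whose alpha subunit is made from Camk2a and which binds GluN2B and phosphorylates GluA1. PSD-95, from Dlg4, is the main scaffold that holds these receptors in the postsynaptic density.

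Promoter sequences are shown for the pair of genes that varied least between rats, Grin1 and Dlg4, whose levels also moved together as described below. RefSeq windows on the GRCr8 build, running from 250 bases before the annotated start to 50 after it, were found for 3 of the 6 genes, Grin1, Dlg4 and Camk2a. Capitals mark matches, on either strand, to the GC box GGGCGG, the EGR motif GCGGGGGCG and TGACG, the core of the cAMP response element.
Grin1, chr3:28528705-28529004, minus strand: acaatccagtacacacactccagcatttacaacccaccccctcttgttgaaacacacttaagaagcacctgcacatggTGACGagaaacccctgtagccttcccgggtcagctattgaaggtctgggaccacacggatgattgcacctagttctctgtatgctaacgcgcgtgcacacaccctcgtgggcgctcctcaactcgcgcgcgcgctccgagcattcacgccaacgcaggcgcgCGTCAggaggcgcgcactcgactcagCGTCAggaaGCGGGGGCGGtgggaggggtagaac
Dlg4, chr10:55239534-55239833, plus strand: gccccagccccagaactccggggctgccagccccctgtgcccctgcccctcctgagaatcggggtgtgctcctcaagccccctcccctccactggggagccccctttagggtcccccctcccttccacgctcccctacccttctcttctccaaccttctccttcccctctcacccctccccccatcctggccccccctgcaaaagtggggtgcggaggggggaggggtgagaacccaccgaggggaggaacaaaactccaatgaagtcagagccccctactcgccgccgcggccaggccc

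The Grin1 window held 1 GC box and 1 EGR match that overlap each other, and 3 matches to TGACG. The Dlg4 window held no match to these motifs, and the Camk2a window held 2 matches to TGACG alone. Over 33469 RefSeq windows of the same length, 33.1% held GGGCGG, 2.73% held GCGGGGGCG, 21.2% held TGACG and 1.83% held the full element TGACGTCA, which was in none of the 3. The Dlg4 window was 68.7% G and C, the Camk2a window 61.3% and the Grin1 window 59.7%, against a median of 51.7% over all windows. These are matches of letters only, and no binding was measured.

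Reads in genes numbered between 16347636 and 27377086 per library, and each of the 6 genes had between 686 and 55780 reads in each library. At the lowest of these numbers, Grin2b in IGF1 replicate 2, counting alone gives a coefficient of variation of 3.82%, below the 9.86% and 26.4% seen between rats in the DsRed and IGF1 groups. IGF1 replicate 1 stood apart from the rest across the transcriptome. Over all tested IDs its Spearman correlation with other libraries averaged 0.986, where the remaining libraries averaged 0.991 to 0.994, and 2.65% of its tested IDs lay over 2-fold from the median of the 8 libraries, against 0.324% to 1.54%. Results are therefore given with and without it.

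All 6 transcripts had lower fitted levels in the IGF1 group than in the DsRed group, and none of the differences passed the test. The median log2 fold change of the 6 was -0.27, beside 0.0027 for all 14522 IDs tested, of which 48.9% were lower in the IGF1 group. By the quasi-likelihood test of edgeR, with p-values adjusted by Benjamini-Hochberg, 0 of the 6 passed an adjusted p of 0.05, as did 0% of all IDs. At an unadjusted p under 0.05 the count was again 0 of 6, where 6.6% of all IDs passed. In none of the 6 did every IGF1 library lie below every DsRed library, which was seen for 1.97% of all IDs. DESeq2, edgeR's likelihood ratio test, limma voom and limma trend also gave 0 of 6 past the adjusted threshold, where 12, 11, 0 and 0 of all IDs passed. Each listed Grin2b alone of the 6 at an unadjusted p under 0.05. Of all IDs, 4.16% passed that threshold by DESeq2, 5.08% by the likelihood ratio test, 6.85% by voom and 6.65% or 6.72% by trend with a pseudocount of 1 or 0.1.

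**Figure D1:**
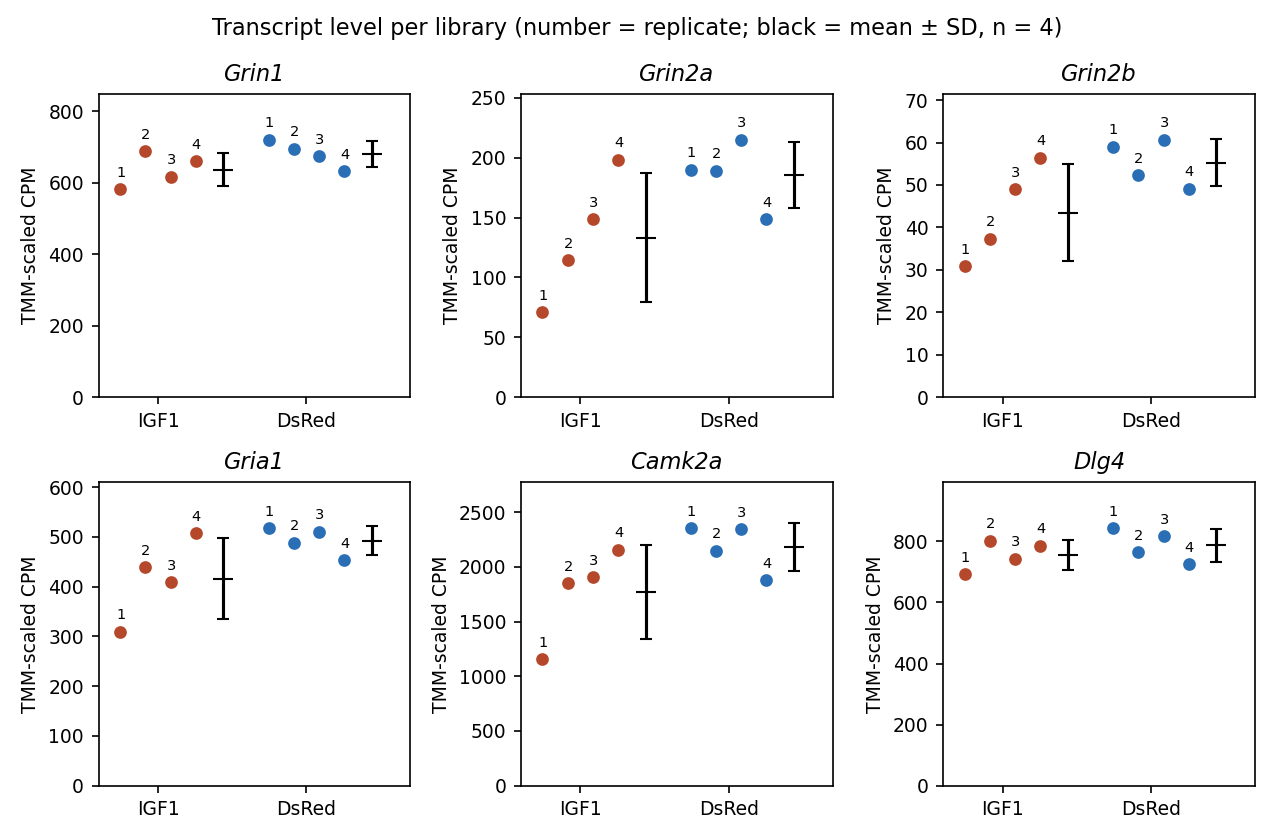
Level of each transcript in TMM-scaled CPM (vertical axes, from 0) in the 4 IGF1 and 4 DsRed libraries; points carry the replicate number, and black marks give the mean ± SD. IGF1 replicate 1 is the lowest point in every panel, and the groups overlap in every panel.

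Levels are given as CPM (read counts scaled to a library of fixed size) after TMM normalisation, which corrects for library size and composition. They are not divided by transcript length, so levels of different genes are not compared. In bulk tissue a lower level can mean fewer cells of a type or less RNA per cell, and these cannot be told apart here. Hippocampal and glial marker genes were not analysed here.

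Grin1, the subunit that every NMDA receptor needs, was at 582, 689, 617 and 660 CPM in IGF1 replicates 1 to 4. In DsRed replicates 1 to 4 it was at 720, 695, 675 and 633 CPM. The groups overlapped over most of their ranges, with 2 IGF1 libraries below the lowest DsRed library. Means were 637 ± 47.0 CPM for IGF1 and 681 ± 37.0 CPM for DsRed (SD, n = 4 each), giving a log2 fold change of -0.10 (SE 0.067) and an adjusted p of 0.767. The 95% interval ran from -0.25 to 0.05.

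Grin2a, which encodes the mature regulatory subunit GluN2A, was at 70.8, 114, 149 and 198 CPM in IGF1 replicates 1 to 4. In the DsRed libraries it was at 190, 189, 215 and 149 CPM. The IGF1 rats were spread 2.80-fold from lowest to highest and the DsRed rats 1.44-fold. IGF1 replicate 4 lay among the DsRed libraries, and IGF1 replicate 3 just under the lowest of them. The means were 133 ± 53.9 and 186 ± 27.4 CPM (SD, n = 4 each). The fitted level was 28.5% lower in the IGF1 group, a log2 fold change of -0.48 (SE 0.258) and an adjusted p of 0.743. The 95% interval, from -1.06 to 0.09, corresponds to between 0.479 and 1.07 times the DsRed level. Of all tested IDs, 1.36% had a lower log2 fold change than Grin2a.

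Grin2b, which encodes GluN2B, the subunit typical of young circuits and the docking partner of CaMKII, was at 30.9, 37.4, 49.0 and 56.4 CPM in IGF1 replicates 1 to 4. It was at 59.0, 52.3, 60.6 and 49.1 CPM in the DsRed libraries. The order of the IGF1 rats was the same as for Grin2a, and 3 of them lay below the lowest DsRed library. The means were 43.4 ± 11.4 and 55.3 ± 5.45 CPM (SD, n = 4 each). The log2 fold change came to -0.35 (SE 0.166), a 95% interval of -0.72 to 0.02 and an adjusted p of 0.743.

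Gria1, the AMPA receptor subunit gene, was at 310, 439, 408 and 508 CPM in the IGF1 libraries and at 517, 488, 510 and 453 CPM in the DsRed libraries. Again 3 IGF1 libraries lay below the lowest DsRed library, and IGF1 replicate 4 lay among the DsRed libraries. The means were 416 ± 82.1 and 492 ± 29.02 CPM (SD, n = 4 each). The log2 fold change came to -0.24 (SE 0.127), a 95% interval of -0.53 to 0.04 and an adjusted p of 0.743.

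Camk2a, the gene for the kinase subunit, was at 1153, 1852, 1905 and 2157 CPM in the IGF1 libraries. It was at 2352, 2148, 2342 and 1878 CPM in the DsRed libraries. IGF1 replicate 1 was far below the other 7, and 2 IGF1 libraries lay below the lowest DsRed library. The means were 1767 ± 430 and 2180 ± 222 CPM (SD, n = 4 each). The log2 fold change came to -0.30 (SE 0.167), a 95% interval of -0.68 to 0.07 and an adjusted p of 0.743.

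Dlg4, the gene for the scaffold PSD-95, was at 692, 802, 744 and 786 CPM in the IGF1 libraries and at 843, 764, 816 and 725 CPM in the DsRed libraries. Of the IGF1 libraries 1 lay below the lowest DsRed library. The means were 756 ± 49.2 and 787 ± 52.8 CPM (SD, n = 4 each). The log2 fold change came to -0.06 (SE 0.068) and an adjusted p of 0.854. Its 95% interval, -0.21 to 0.09, corresponds to between 0.865 and 1.07 times the DsRed level.

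Leaving out IGF1 replicate 1 made the fitted differences of all 6 genes between 1.64 and 3.66 times smaller on the log2 scale, and their direction stayed the same. Grin2a then had a log2 fold change of -0.27 (95% interval -0.65 to 0.11), Grin2b -0.21 (-0.49 to 0.06), Camk2a -0.14 (-0.34 to 0.05) and Gria1 -0.12 (-0.29 to 0.05). Grin1 was at -0.05 (-0.19 to 0.08) and Dlg4 at -0.02 (-0.15 to 0.12). The median over the 6 was -0.13. Adjusted p-values from edgeR then ranged from 0.806 to 0.982. IGF1 replicate 4 acted the other way. Without it, Grin2a (log2 fold change -0.74), Grin2b (-0.50), Camk2a (-0.41) and Gria1 (-0.35) had an unadjusted p under 0.05 with an adjusted p of 0.503 each by edgeR. In that fit 9.74% of all IDs had an unadjusted p under 0.05, the highest share of any setting run, and 0 passed the adjusted threshold. The groups then did not overlap for Grin2b and Gria1, as for 4.63% of all IDs in that direction.

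**Figure D2:**
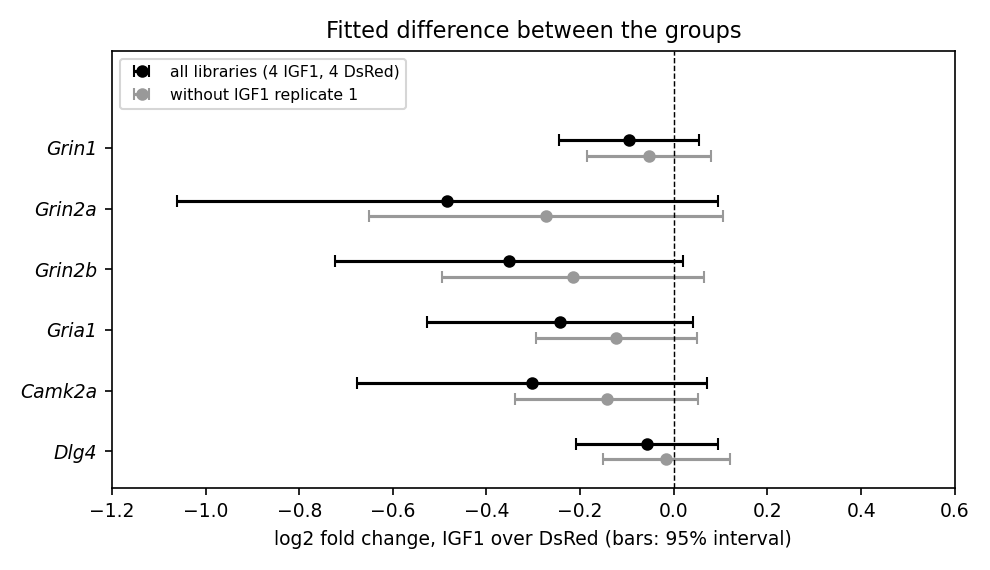
Fitted log2 fold change of each gene, IGF1 over DsRed (horizontal axis), with its 95% interval, over all libraries (black) and without IGF1 replicate 1 (grey). Every interval crosses 0, and each grey point lies nearer to 0 than the black one above it.

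Over both groups together, Grin2a, Grin2b, Gria1 and Camk2a varied more between rats than Grin1 and Dlg4 did. This division into a variable and a steady set was made after the values were seen and is a description. It did not hold for Gria1 among the DsRed rats alone. There its coefficient of variation was 5.90%, beside 5.44% for Grin1 and 6.71% for Dlg4. IGF1 replicate 1 had 38.1% of the DsRed mean for Grin2a, 52.9% for Camk2a, 55.9% for Grin2b and 62.9% for Gria1. The same library had 85.5% of that mean for Grin1 and 88.0% for Dlg4. All 6 transcripts were thus at their lowest in this library. Those of the obligatory NMDA subunit and of the scaffold lay nearer to the DsRed mean than those of both regulatory subunits, of GluA1 and of the kinase. For no gene did the gap of this library to the next pass Dixon's 95% critical value for 4 samples. The widest gap took 0.696 of the group's range, for Camk2a.

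The within-group standard deviation of log2 CPM was 0.47 for Grin2a, 0.30 for Camk2a, 0.29 for Grin2b and 0.22 for Gria1. It was 0.094 for Grin1 and 0.096 for Dlg4. Among the 5633 IDs whose log2 CPM averaged at least 5, the value of Grin2a was above that of 99.3%, those of Camk2a and Grin2b above 96.8% and 96.4%, and that of Gria1 above 91.9%. Grin1 and Dlg4 were near the middle, above 52.9% and 54.7%. Without IGF1 replicate 1 these places were 98.9% for Grin2a, 97.2% for Grin2b, 88.9% for Camk2a, 83.9% for Gria1, 54.0% for Grin1 and 58.5% for Dlg4. The large spread of Grin2a and Grin2b between rats was thus present in the other 7 libraries too.

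Most of that spread was in the IGF1 group. The coefficient of variation of Grin2a was 40.5% in the IGF1 and 14.7% in the DsRed group, and that of Camk2a 24.4% and 10.2%. It was 26.4% and 9.86% for Grin2b and 19.7% and 5.90% for Gria1. It was larger in the IGF1 group for 5 of the 6 genes, where 67.0% of all tested IDs had the larger coefficient in that group. Without IGF1 replicate 1 it was 27.4% for Grin2a, 20.2% for Grin2b and 11.3% for Gria1, still above the DsRed values, and 8.28% for Camk2a, below its DsRed value. Grin1 was then at 5.47% in the IGF1 group against 5.44% in the DsRed group, and Dlg4 at 3.91% against 6.71%. The share of all IDs was not computed without that library. The difference in spread between the groups was not tested. Reads outside annotated features were compared with the sum of such reads and gene reads. They took 32.9%, 31.5%, 32.2% and 31.2% of that sum in the IGF1 libraries, in replicate order. In the DsRed libraries they took 31.6%, 31.2%, 31.5% and 30.7%. They were highest in the library with the lowest receptor transcripts, and their part in the result was not tested.

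**Figure D3:**
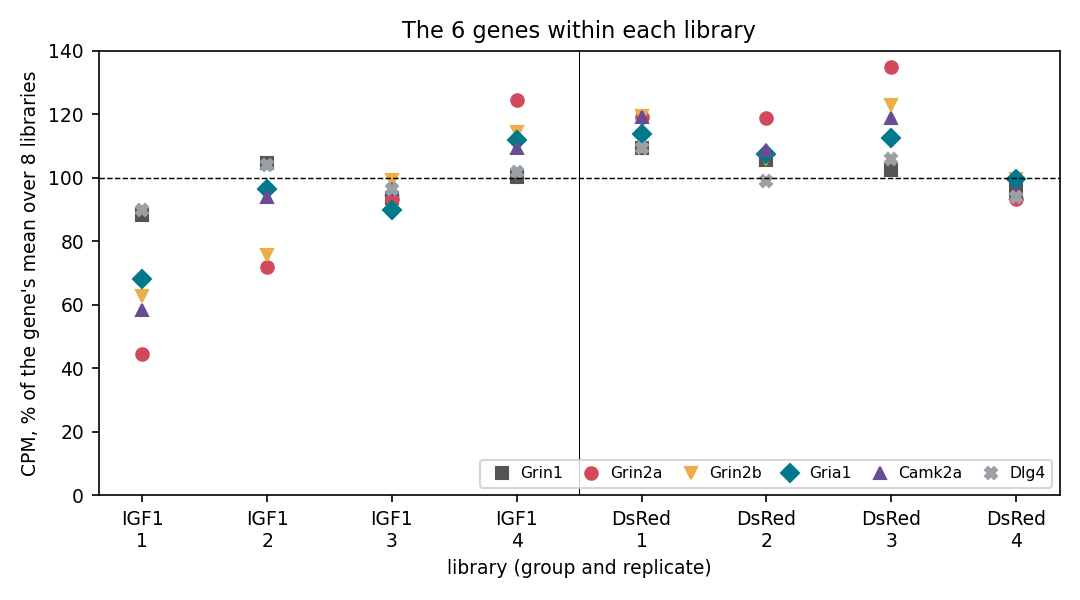
Level of each gene in each library as a percentage of that gene's mean over the 8 libraries (vertical axis; the dashed line is 100%). Grin2a is at 44.4% and Dlg4 at 89.8% in IGF1 replicate 1, while in DsRed replicate 4 all 6 genes lie between 93.4% and 99.7%.

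The balance between transcripts was compared within each library, where scaling between libraries plays no part. These are ratios of read counts, not of molecules, since gene length was not used, but length cancels between groups. The log2 ratio of Grin2a to Grin2b, the mature against the juvenile regulatory subunit, was 1.20, 1.61, 1.60 and 1.81 in the IGF1 libraries, in replicate order. It was 1.69, 1.85, 1.83 and 1.60 in the DsRed libraries. The groups overlapped, with a difference of -0.18 and p = 0.229 by two-sided exact permutation. Without IGF1 replicate 1 the difference was -0.06.

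The log2 ratio of Gria1 to Grin1, AMPA against NMDA receptor transcript, was -0.91, -0.65, -0.60 and -0.38 in the IGF1 libraries. It was -0.48, -0.51, -0.40 and -0.48 in the DsRed libraries. The difference was -0.17 with p = 0.200 by two-sided exact permutation. Without IGF1 replicate 1 it was -0.07 with an exact permutation p of 0.400. Without IGF1 replicate 4 it was -0.25 with an exact permutation p of 0.0286, not adjusted over the ratios. IGF1 replicate 4 had the highest ratio of all 8 libraries and the other 3 IGF1 libraries had the lowest, so the IGF1 group lay on both sides of the DsRed group.

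The log2 ratio of Camk2a to Dlg4, kinase against scaffold, was 0.74, 1.21, 1.36 and 1.46 in the IGF1 libraries and 1.48, 1.49, 1.52 and 1.37 in the DsRed libraries. Here 3 DsRed libraries lay above all 4 IGF1 libraries, and DsRed replicate 4 lay between IGF1 replicates 3 and 4. IGF1 libraries averaged 1.19 ± 0.32 and DsRed libraries 1.47 ± 0.06 (SD, n = 4 each). Two-sided exact permutation gave p = 0.0571 for the difference of -0.28, or 0.171 when adjusted over the 3 ratios by Benjamini-Hochberg. The smallest p that 4 against 4 can give is 0.0286. Without IGF1 replicate 1 the difference was -0.13 with an exact permutation p of 0.143. Without IGF1 replicate 4 it was -0.37 with an exact permutation p of 0.0286, not adjusted over the ratios. The adjusted p was 0.229 for each of the other ratios.

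**Figure D4:**
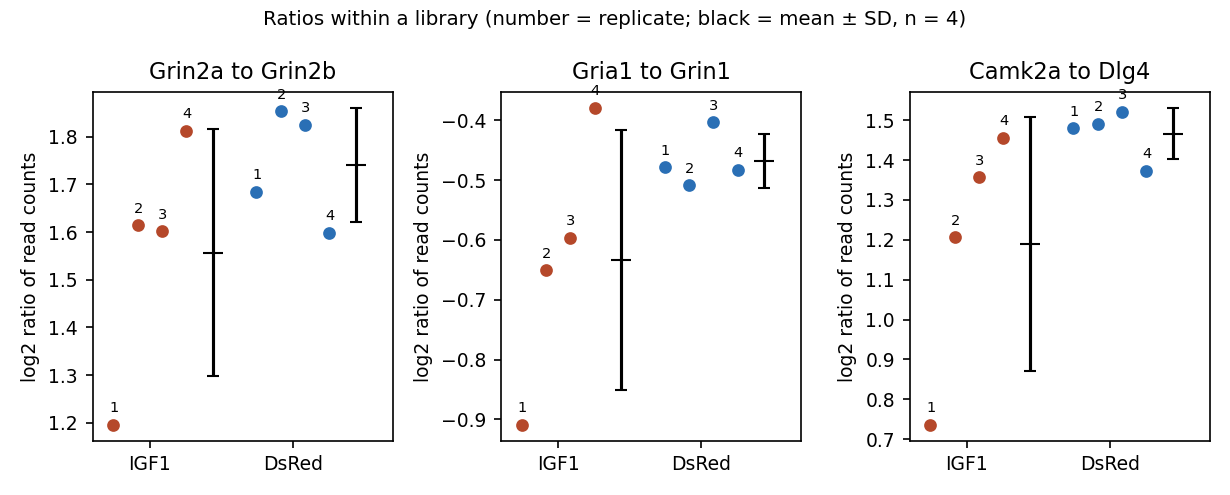
Log2 ratio of read counts within each library for 3 pairs of genes (vertical axes, not starting at 0), with the replicate number beside each point and the mean ± SD in black. IGF1 replicate 1 has the lowest value of each ratio, at 1.20, -0.91 and 0.74.

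Across the 8 rats, levels of the 6 genes were positively correlated in every pair, closely in some pairs and weakly in others. Fewer pairs passed without IGF1 replicate 1, 4 of 15 against 11. Pearson's r of log2 CPM was positive for all 15 pairs, between 0.61 and 0.98, and 11 pairs passed an exact permutation test at 0.05 after Benjamini-Hochberg adjustment over the 15. By Spearman's rho, between 0.48 and 0.98, 8 pairs passed. The share of passing pairs among all tested IDs was not computed under any setting. Of the other tested IDs, 0.0344% had a higher r with Grin2b than Grin2a had, and 16.1% a higher r than Grin1 had. For Camk2a, 7.62% had a higher r than Dlg4 had. Grin2a and Grin2b were the closest pair, with r = 0.98 (exact permutation p = 0.000124, adjusted 0.00093) and rho = 0.98 (p = 0.000397, adjusted 0.0057). Gria1 and Camk2a followed with r = 0.98 (exact permutation p = 0.000967, adjusted 0.00363) and rho = 0.93 (p = 0.00223, adjusted 0.00837). Grin1 and Dlg4 had r = 0.90 (exact permutation p = 0.003, adjusted 0.0075) and rho = 0.81 (p = 0.0218, adjusted 0.0408). The weakest pair was Grin1 and Grin2b, an obligatory subunit and one of its partners, with r = 0.61 (exact permutation p = 0.109, adjusted 0.109) and rho = 0.57 (p = 0.151, adjusted 0.162).

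Part of this rested on IGF1 replicate 1. The variable set was defined on these same libraries, so pairs that fall within it do not test the division. Without IGF1 replicate 1, 4 of the 15 pairs passed the exact permutation test after adjustment, all of them within that set. They were Grin2a with Grin2b (r = 0.96, adjusted p = 0.0149 by exact permutation), Grin2b with Camk2a (0.86, 0.0223), Grin2a with Camk2a (0.89, 0.0258) and Gria1 with Camk2a (0.89, 0.0469). Grin1 with Dlg4 was at r = 0.81, with an adjusted exact permutation p of 0.0759. Grin1 with Grin2a dropped to 0.26, Grin1 with Grin2b to 0.16, Dlg4 with Grin2a to 0.33 and Dlg4 with Grin2b to 0.29. With the 2 libraries omitted that lay farthest from the first gene's median, r was between 0.09 and 0.97. It was 0.91 for Grin2a with Grin2b, 0.97 for Gria1 with Camk2a and 0.78 for Grin1 with Dlg4. Grin1 had r = 0.14 with Grin2a and 0.09 with Grin2b, where IGF1 replicates 1 and 3 were omitted. Dlg4 had r = 0.80 with Grin2a and 0.94 with Grin2b, where IGF1 replicates 1 and 2 were omitted. The low r of Dlg4 with Grin2a and Grin2b thus depended on which libraries were left out. After removal of the group means r lay between 0.44 and 0.97. All libraries share their preparation and scaling, which can move genes together.

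**Figure D5:**
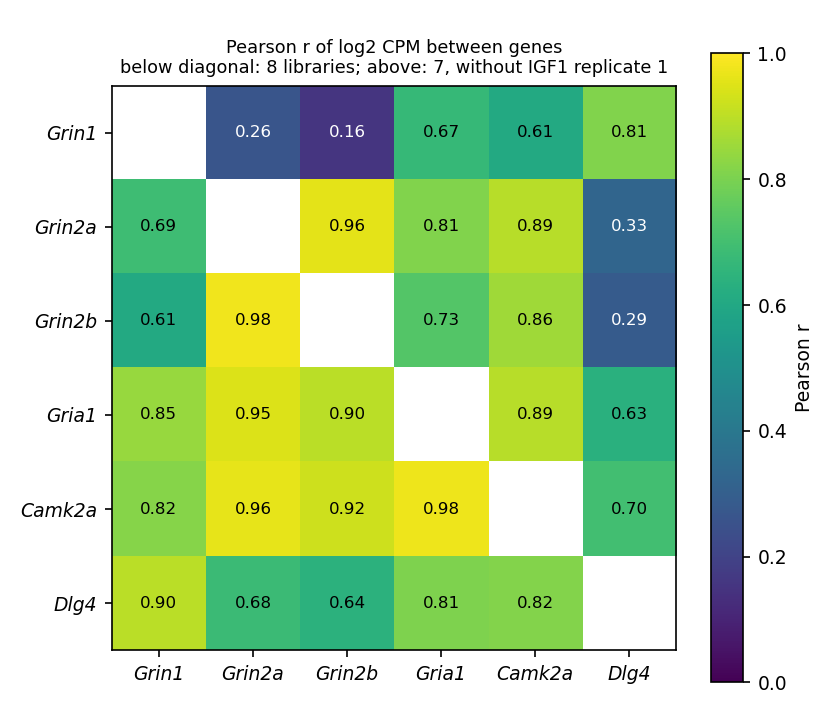
Pearson's r of log2 CPM for each pair of genes, over all 8 libraries below the diagonal and over the 7 without IGF1 replicate 1 above it; lighter means higher. Grin2a with Grin2b stays at 0.96 above the diagonal while Grin1 with Grin2b drops from 0.61 to 0.16.

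For each of the 6 genes, some IDs outside the set had a higher r with it than any other member had. How many IDs followed all 6 was not counted. Of 14521 other IDs ranked by r with Grin2b, Grin2a came 6th, and Grin2b came 13th for Grin2a. Gria1 came 50th for Camk2a, Camk2a 25th for Gria1 and Grin1 61st for Dlg4. Grin1 came 2342nd for Grin2b. Among 12691 IDs whose log2 CPM averaged at least 1, the pair most like the 6 genes by mean r were ENSRNOG00000002722 and ENSRNOG00000020683, each with a mean r of 0.92 over the 8 libraries. Their symbols are not paired with the IDs in the files. The first was at 176, 231, 229 and 249 CPM in the IGF1 libraries, in replicate order. In the DsRed libraries it was at 278, 255, 261 and 235 CPM. The second was at 125, 137, 137 and 140 CPM in the IGF1 libraries. It was at 144, 142, 144 and 137 CPM in the DsRed libraries, a narrower range. Both were lowest in IGF1 replicate 1. They were selected by r with the 6 genes over these same libraries, so that shared lowest library follows largely from the selection. The group difference had an adjusted p of 0.743 for the first and 0.759 for the second by edgeR.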

How the data were processed

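TruSeq RNA libraries were prepared from total RNA, per the labels' protocols. Tools named in the submitters' processing notes are CASAVA 1.8.2, STAR, edgeR and HTSeq. The build, annotation and strandedness of the counting are not given in the sources used, so overlapping and antisense genes cannot be told apart. The authors deposited raw read counts per Ensembl gene ID and a second table of normalised signal, named as log2 but linear. Those deposited signal values equal TMM-scaled CPM over the 13595 IDs with over 1 CPM in at least 4 libraries, to within 3.05e-09. Rows naming no gene were left out of library sizes. Reads outside annotated features made up 30.7% to 32.9% of the sum of such reads and gene reads in each library. No library repeated another: the 28 pairwise chi-square values per degree of freedom lay between 5.74 and 54.1.

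Counts were filtered with filterByExpr (minimum count 10, minimum total 15), TMM-scaled and tested with glmQLFit and glmQLFTest in edgeR 4.0.16 (R 4.3.3), with group alone in the model and two-sided p-values adjusted over all IDs by Benjamini-Hochberg. The procedure was tested on simulated independent counts. The simulation held no library that stood apart, so it does not cover that feature of these data. Intervals are the fold change ± the standard error times the t quantile at the fit's degrees of freedom, with the standard error taken from the F statistic. Log2 CPM used a prior count of 2. Ratios and correlations were tested by exact permutation. Alternatives included DESeq2 1.42.0, limma 3.58.1 voom, limma trend on log2 (signal + 1) or (signal + 0.1), other scalings and filters, a robust fit, the replicate number as a block and leaving out each library. Genes named are the 6 members and the 2 IDs with the highest mean r with them. Members, ratios and lists were chosen with earlier results of these data known. Lists of other synapse genes and cell type markers were set by symbol and not analysed here, since 0 IDs could be paired with symbols.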

Additional observations from a re-analysis of the deposited data

How the results depend on the processing

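No alternative put any of the 6 genes past an adjusted p of 0.05, and each kept a negative log2 fold change in all 20 alternatives. The range was -0.74 to -0.27 for Grin2a, -0.50 to -0.21 for Grin2b, -0.41 to -0.14 for Camk2a, -0.35 to -0.12 for Gria1, -0.13 to -0.05 for Grin1 and -0.09 to -0.02 for Dlg4, with an adjusted p of at least 0.503 under every tool. At an unadjusted p under 0.05, 1 gene (Grin2b) was listed by DESeq2, the likelihood ratio test, limma voom, limma trend with either pseudocount and the fit without a filter, where 4.16% to 6.85% of all IDs were, and 3 (Grin1, Grin2b, Gria1) with scaling by total counts, where 7.12% of all IDs were. Leaving out 1 library gave 0 to 4 such genes and 0 to 2 genes whose groups did not overlap, the upper values without IGF1 replicate 4. Of all IDs, 4.3% to 9.74% had an unadjusted p under 0.05 in these fits, with 9.74% without IGF1 replicate 4. Without that library 4.63% of all IDs did not overlap and were lower in the IGF1 group. This share was not computed with other libraries left out. Leaving out 1 library also gave a log2 ratio difference of -0.251 to -0.0739 for Gria1 to Grin1 and -0.37 to -0.13 for Camk2a to Dlg4. Without IGF1 replicate 4 each had an exact permutation p of 0.0286, the smallest possible with 3 libraries against 4. Of the 15 correlations, 4 passed without IGF1 replicate 1, 14 with total counts and 11 with RLE scaling, against 11. With the replicate block 0 genes passed at either threshold, and the ratio differences were -0.18, -0.17 and -0.28 with exact sign-flip permutation p of 0.25 each, where 4 pairs allow 0.125. The numbers were not taken to pair the rats. Deviations from the group means correlated at 0.0548, 0.126, 0.244 and 0.134 between libraries of 1 number, and the best match had the same number for all 4 IGF1 libraries and for 2 DsRed libraries. The cause of these differences between settings was not tested.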
